A study of Rattus norvegicus with 8 samples.

Results

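The comparison described here set thyroid cells carrying a mutant human TSH receptor, L629F, against cells carrying the wild type human receptor, both in the presence of iodide. Its members are the 4 arrays of cells given 1 mM sodium iodide, 2 from TSHR-L629F and 2 from TSHR-WT cells, out of 8 arrays in the series, and they were chosen by sample title. All cells were FRTL-5, a rat thyroid follicular line that grows in response to TSH, of the sub-clone SB5, and all were cultured with 5 mU/ml bovine TSH. The other 4 arrays hold the same lines with 1 mM sodium chloride as an isotonic control, 2 arrays each, and were used for the shared estimate of the spread and as a second, separate view of the same receptor contrast. L629F is a leucine to phenylalanine exchange that activates the receptor without hormone, and the series uses it as a cell model of thyroid autonomy. The labels give a single stable line per receptor, so an effect of the receptor cannot be told apart from a difference between the lines, and they give no duration of the salt treatment. They do not say that the 2 arrays of a group came from separate cultures. The p-values therefore measure the spread between these arrays and no more, and that spread may be technical. The question is which transcripts differ between the L629F and the wild type line when iodide is present. TSH was given to both, so the wild type receptor was not without its hormone.

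The TSH receptor couples to the stimulatory G protein, which activates adenylyl cyclase; the cAMP that is made activates protein kinase A and transcription factors that bind the cAMP response element. In thyroid follicular cells this pathway drives growth, iodide uptake and hormone synthesis, and excess iodide dampens several of its outputs. ATF4, a transcription factor translated preferentially when the initiation factor eIF2 is phosphorylated, raises genes of amino acid transport, serine and proline synthesis and tRNA charging by binding a composite of C/EBP and ATF sites.

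Genes higher in L629F cells under iodide included 5 with an intact ATF4 composite element close to the transcription start, and their windows are printed because they share a motif that the comparison did not use. The sequences come from RefSeq promoter entries of build GRCr8 and run 5′ to 3′ along the strand of the gene, with the motif in capitals.
Chac1, chr3:126795944-126795991, plus strand: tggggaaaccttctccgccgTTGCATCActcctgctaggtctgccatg
Nupr1, chr1:190645929-190645976, minus strand: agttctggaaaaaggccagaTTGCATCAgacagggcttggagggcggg
Inhbe, chr7:65064720-65064767, minus strand: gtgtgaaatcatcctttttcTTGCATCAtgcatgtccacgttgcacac
Iars1, chr17:15193653-15193696, minus strand: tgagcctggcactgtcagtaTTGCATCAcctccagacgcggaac
Serpinf1, chr10:60760992-60761039, minus strand: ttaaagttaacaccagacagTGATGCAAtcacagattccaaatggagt
The last base of the motif lay 160 bases before the annotated start in Chac1, 48 in Nupr1, 221 in Inhbe, 17 in Iars1 and 114 in Serpinf1. The motif searched was TGATGCAA or, on the other strand, TTGCATCA, within the 250 bases before the start. It was present in 5 of the 32 higher genes that had a promoter entry (15.6%), in 0 of 11 lower genes with an entry, and in 44 of 8423 tested genes with an entry (0.522%). With 1 base left free (TGATGNAA), which includes every match of the stricter form, Cyp2f4 and Pck2 were added and the counts were 7 of 32 (21.9%), 0 of 11 and 152 of 8423 (1.8%). These letters were chosen after the called genes had been seen, so the shares are a description with no test.

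Among the lower genes, 2 held a full cAMP response element (TGACGTCA, a palindrome), and their windows are shown because the receptor signals through cAMP.
Areg, chr14:17265705-17265752, minus strand: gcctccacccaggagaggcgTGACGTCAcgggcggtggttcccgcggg
Ing3, chr4:51443618-51443665, plus strand: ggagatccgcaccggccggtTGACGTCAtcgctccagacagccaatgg
The element ended 84 bases before the start in Areg and 166 in Ing3. It was present in 2 of 11 lower genes (18.2%), 0 of 32 higher genes and 265 of 8423 tested genes (3.15%). Its short form, TGACG or CGTCA, which the full element contains, was present in 5 of 11 lower genes (45.5%), 10 of 32 higher genes (31.2%) and 2568 of 8423 tested genes (30.5%). The share among the higher genes was thus close to that among all tested genes. A match in such a window says that the letters are there, not that a factor binds them.

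The deposited values are MAS5 signals on a linear scale. Low signals differed between the lines: the 25th percentile of signal was 29.3 to 31.6 with the wild type and 40.8 to 43.1 with the L629F receptor, and the medians were 118 to 127 and 138 to 147 (4 arrays each). RNA quality also varied, with a GAPDH 3′ to 5′ ratio of 1.40 and 3.13 on the wild type iodide arrays and 2.27 and 2.49 on the L629F iodide arrays. The part of either in the results was not tested beyond the fits given beside the results they touch. Across genes, which are not independent replicates, Pearson's r between both arrays within a group was 0.972 to 0.982 on the log2 scale. Markers of thyroid follicular cells were present at high signal: Tg, the prohormone of thyroid hormone, read 10748 and 13846 on the wild type and 13609 and 13929 on the L629F iodide arrays, and the lowest iodide signals of Pax8, Nkx2-1, Foxe1 and Hhex were 5506, 7031, 5977 and 13277. Of the markers of C cells (3 tested of 8), fibroblasts (2 of 8), endothelium (2 of 8) and leucocytes (3 of 13), 0 passed the threshold. Their summed signals over the tested members were 437 to 592, 182 to 327, 280 to 457 and 451 to 536 on the 4 iodide arrays, and the defining leucocyte marker Ptprc was among those too dim to be tested. The rat Tshr probe set read 355 and 345 on the wild type and 399.8 and 576 on the L629F iodide arrays (0.42 ± 0.23, adjusted p = 0.483); it is designed on the rat gene and is no check of the human receptor.

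Under iodide, 50 of 10046 genes (0.498%) differed between the lines at a Benjamini-Hochberg adjusted p of 0.05 in limma. Of these, 37 (0.368%) were higher and 13 (0.129%) lower in L629F cells, 22 and 5 of them by at least 1 on the log2 scale. The changes are differences of log2(signal + 35.3), which understate the change of dim genes, and errors after ± are standard errors of the fit with n = 2 arrays per group. At an unadjusted p of 0.05, 1214 genes passed (12.1%; 654 higher, 6.51%, and 560 lower, 5.57%), against 502 that such a threshold would pass by chance. The median change over all tested genes was -0.01. In bulk RNA of a culture, fewer cells with a transcript and less of it per cell cannot be told apart. In all 50 called genes the 2 L629F iodide arrays lay on the same side of both wild type iodide arrays, which was also true of 1991 tested genes (19.8%) upward and 2079 (20.7%) downward.

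**Figure D1:**
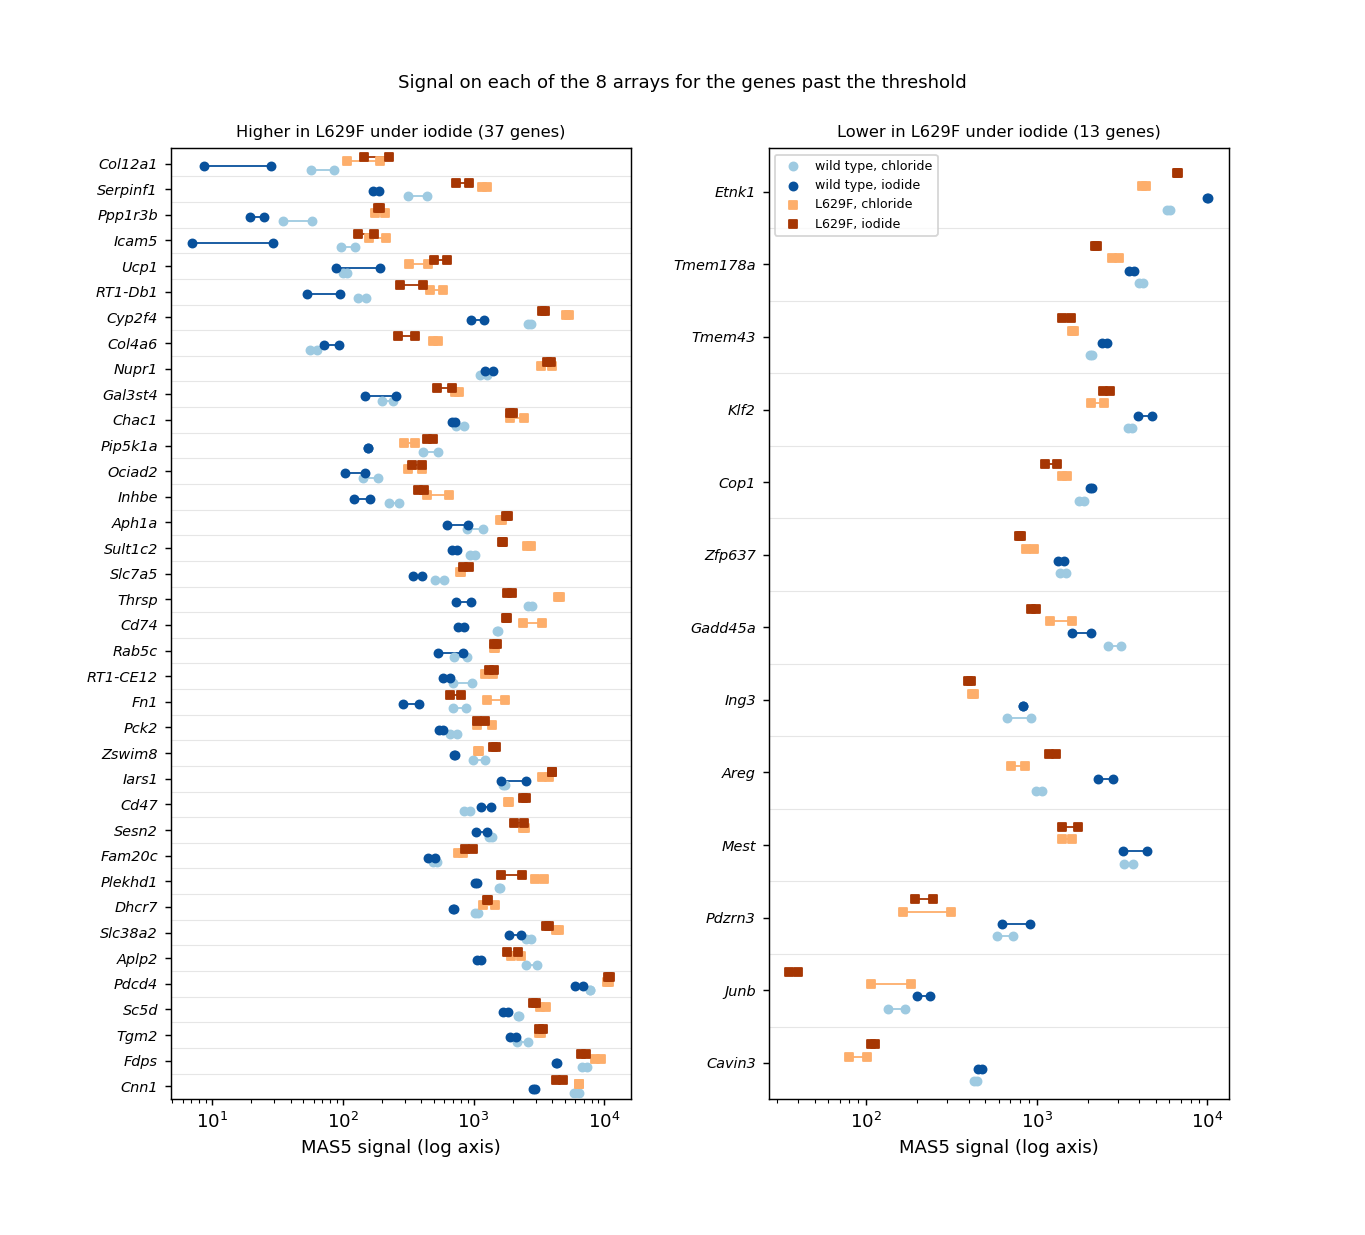
MAS5 signal on each of the 8 arrays (log axis) for the 37 genes higher and the 13 genes lower in L629F cells under iodide; each line joins the 2 arrays of a group, circles are wild type, squares L629F, dark colours iodide and light colours chloride. In every gene the dark squares and the dark circles do not overlap, and for 45 of the 50 genes the light symbols are apart in the same direction.

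The count rests on few arrays. Without wild type iodide replicate 1 or 2 it was 21 or 24, without L629F iodide replicate 1 or 2 it was 8 or 10, without wild type chloride replicate 1 or 2 it was 17 each, and without L629F chloride replicate 1 or 2 it was 23 or 25. Cyp2f4, Serpinf1, Nupr1, Chac1 and Cavin3 passed in all 8 of these fits, and 22 of the 50 genes passed in 0 of them, while all 50 kept their sign in every fit run. In the fits without 1 array the sign could not turn, because the iodide groups of these 50 genes do not overlap. The chloride arrays do not enter the change itself. The split between higher and lower genes depended on the scaling: with each array centred on the median of all its probe sets, which moved the median of all genes to -0.19, 17 genes were higher and 54 lower, and 17 of the 37 higher and all 13 lower genes were among them. The 17 were Serpinf1, Ppp1r3b, Ucp1, RT1-Db1, Cyp2f4, Col4a6, Nupr1, Gal3st4, Chac1, Pip5k1a, Aph1a, Sult1c2, Slc7a5, Thrsp, Cd74, Cd47 and Pdcd4, so the calls of the sterol genes, Sesn2, Slc38a2, Pck2, Iars1 and Inhbe depend on that choice. With the GAPDH ratio of each array as a covariate, all 50 genes passed.

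**Figure D2:**
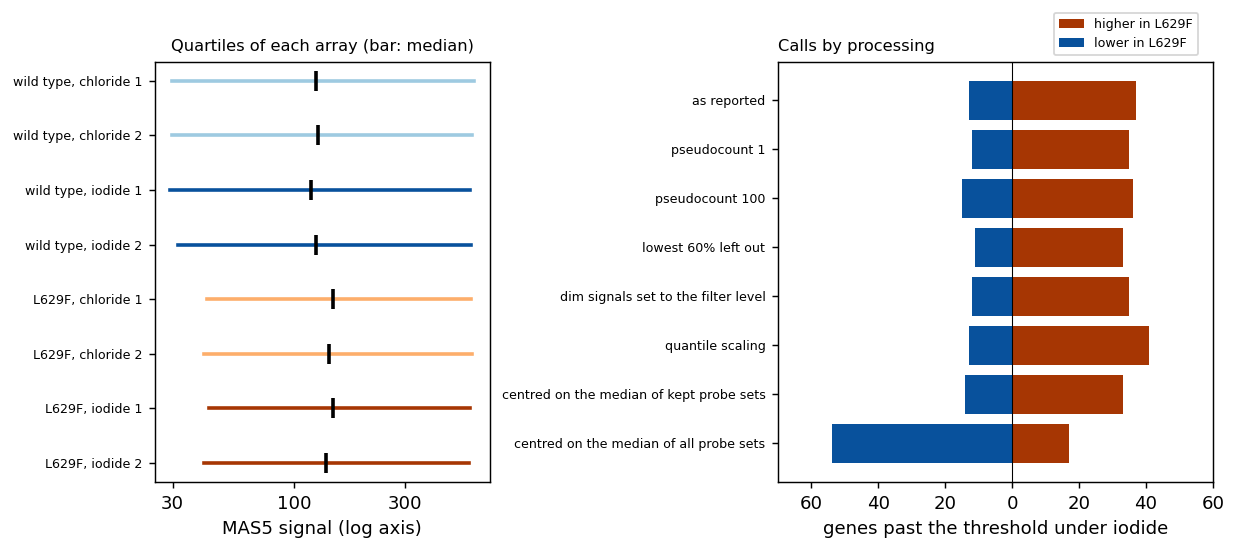
Left, the 25th percentile, median (black bar) and 75th percentile of MAS5 signal on each array (log axis); right, the number of genes past the threshold under iodide, higher (to the right) or lower (to the left) in L629F cells, under 8 ways of processing. The lower quartile of the 4 L629F arrays starts at 40.8 or above and that of the 4 wild type arrays at 31.6 or below, and centring on all probe sets turns the split from 37 higher and 13 lower to 17 and 54.

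Genes of the ATF4 response were among those higher in L629F cells. Of 21 tested members of the list of ATF4 targets and amino acid supply, 4 rose and 0 fell at the threshold (against 0.368% of all genes higher), 14 were higher at an unadjusted p of 0.05 (6.51% of all genes), and 19 had a positive change (48.4% of all genes). The median change of the list was 0.58, and 0.39 to 0.58 under the other scalings. With quantile scaling 6 members rose and 0 fell at the threshold, and centred on all probe sets 2 rose and 1 fell. Under chloride the median of the list was 0.515, and 17 of the 21 changes were positive (5098 of all 10046 tested genes). There 5 members were called higher and 0 lower (0.328% of all genes were called higher). Chac1, an enzyme that breaks down glutathione, read 684 and 719 on the wild type iodide arrays and 1903 and 2014 on the L629F iodide arrays, a log2 change of 1.44 ± 0.16 (adjusted p = 0.00161). Both L629F arrays were well above both wild type arrays, and the chloride arrays lay in the same order, at 736 and 843 for wild type and 1913 and 2417 for L629F. Slc7a5, the transporter of large neutral amino acids, read 344 and 407 against 837 and 929 and rose by 1.16 ± 0.18 (adjusted p = 0.0164). Sesn2, a leucine sensor that restrains mTORC1, read 1051 and 1269 against 2417 and 2022 and rose by 0.92 ± 0.16 (adjusted p = 0.022). Slc38a2, a sodium-coupled transporter of small neutral amino acids, read 2293 and 1852 against 3800 and 3550 and rose by 0.82 ± 0.14 (adjusted p = 0.0246). In each of these the groups did not overlap. With each array left out in turn, Chac1 passed in 8 of 8 fits, Slc7a5 in 5, Sesn2 in 3 and Slc38a2 in 2.

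Just outside the threshold were Phgdh, the first enzyme of serine synthesis (0.61 ± 0.12, adjusted p = 0.0503), and Slc7a11, the cystine importer (1.15 ± 0.24, adjusted p = 0.0526). Phgdh read 3940 and 4009 against 6307 and 5879 and Slc7a11 171 and 126 against 329 and 412, again without overlap. Shmt2 and Aldh18a1, mitochondrial enzymes of one-carbon and proline metabolism, had changes of 0.58 ± 0.13 and 0.70 ± 0.17 (adjusted p = 0.0759 and 0.0999). The stress-linked factor Ddit3 had a change of 0.0044 ± 0.20 and the heavy chain of the amino acid exchangers, Slc3a2, one of 0.11 ± 0.13, so the list was not uniform. Atf4 itself pointed the other way: it read 7946 and 9249 on the wild type and 5201 and 6711 on the L629F iodide arrays, a change of -0.53 ± 0.14 that did not pass (adjusted p = 0.141). Psat1, another serine synthesis enzyme and the brightest of the list, read 20908 and 27646 against 21776 and 21081 and its groups overlapped (-0.17 ± 0.14, adjusted p = 0.665).

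The next 4 called genes are outside that list; they were grouped here after the calls were seen, so they add nothing to its count. Nupr1, a small nuclear protein induced by stress, read 1396 and 1234 on the wild type and 3936 and 3662 on the L629F iodide arrays and rose by 1.51 ± 0.15 (adjusted p = 0.000695). With chloride it read 1273 and 1121 in wild type and 3980 and 3261 in L629F cells, a separation of like size. Inhbe, a subunit of activins made mostly in liver, read 123 and 163 against 421 and 378 (1.29 ± 0.25, adjusted p = 0.043). Pck2, the mitochondrial phosphoenolpyruvate carboxykinase, read 584 and 542 against 1223 and 1072 (0.98 ± 0.18, adjusted p = 0.0346). Iars1, the cytosolic isoleucyl-tRNA synthetase, read 2521 and 1628 against 3976 and 4009 (0.97 ± 0.18, adjusted p = 0.0362). Inhbe passed in 0 of 8 fits without 1 array, Iars1 in 1 and Pck2 in 2. Of the 23 tested genes of the unfolded protein response, 0 passed (0.498% of all genes) and 16 had a positive change (48.4% of all genes). Among them, 4 were higher and 0 lower at an unadjusted p of 0.05 (6.51% and 5.57% of all genes). With quantile scaling 1 member was called higher. The median of the list was 0.07, which became -0.11 when arrays were centred on all probe sets, against -0.19 for all genes. Herpud1, a membrane protein of the degradation machinery of the endoplasmic reticulum, had the smallest p (0.51 ± 0.13, adjusted p = 0.118).

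**Figure D3:**
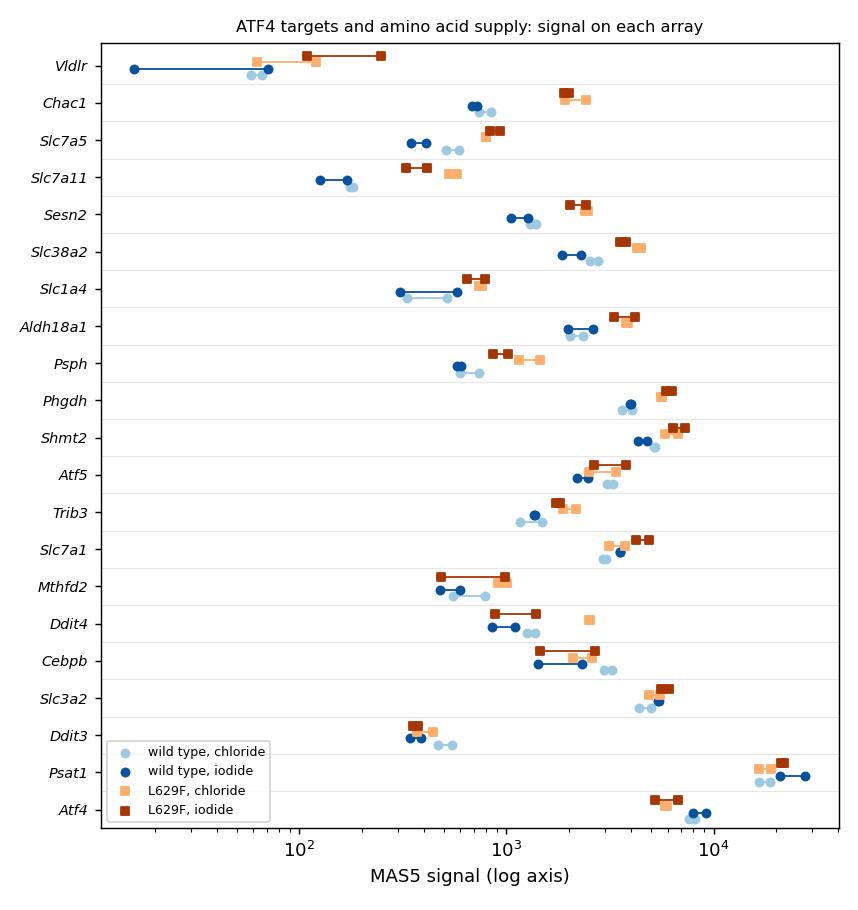
MAS5 signal on each of the 8 arrays (log axis) for the 21 tested members of the ATF4 list, ordered by the change under iodide; circles are wild type, squares L629F, dark colours iodide and light colours chloride. For 15 members both L629F iodide arrays lie above both wild type iodide arrays (19.8% of all genes tested), and for Atf4 they lie below (20.7% of all genes).

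Of 20 tested cholesterol synthesis genes, 3 rose in L629F cells and 0 fell (0.368% of all genes rose). At an unadjusted p of 0.05, 10 were higher (6.51% of all genes), and 19 had a positive change (48.4% of all genes), with a median of 0.40. Fdps, which makes farnesyl diphosphate, read 4294 and 4368 on the wild type and 7177 and 6665 on the L629F iodide arrays and rose by 0.67 ± 0.12 (adjusted p = 0.0346). Sc5d, a sterol desaturase, read 1824 and 1682 against 2974 and 2847 and rose by 0.72 ± 0.14 (adjusted p = 0.0395). Dhcr7, the reductase of the last step, read 698 and 707 against 1268 and 1298 and rose by 0.84 ± 0.16 (adjusted p = 0.0447). The groups were apart in all 3, and the arrays of a group lay close together. Msmo1, an oxidase of methylsterols, and Insig1, which holds back SREBP processing when sterols are plentiful, read 3616 and 3221 against 5346 and 5034 and 2816 and 3691 against 5318 and 5217, both apart but short of the threshold (0.60 ± 0.13 and 0.70 ± 0.15, adjusted p = 0.0557 and 0.0568). Fdps, Sc5d and Dhcr7 each passed in 0 of 8 fits without 1 array, and the adjusted p reached 0.205, 0.202 and 0.187. Under chloride the median of the list was 0.24 and 0 members passed.

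In fatty acid synthesis, 1 of 20 tested members rose and 0 fell (0.368% of all genes rose), 8 were higher at an unadjusted p of 0.05 (6.51% of all genes), 17 had a positive change (48.4% of all genes), and the median was 0.20. The gene that rose was Thrsp, a nuclear protein that promotes lipogenic transcription, at 959.6 and 731 on the wild type and 1804 and 1980 on the L629F iodide arrays (1.14 ± 0.15, adjusted p = 0.00648, passing in 7 of 8 fits without 1 array). Its chloride arrays stood higher in both lines, at 2793 and 2615 for wild type and 4578 and 4400 for L629F, in the same order (0.72 ± 0.15, adjusted p = 0.0686). The other 2 kept probe sets of Thrsp had changes of 0.99 and 0.82. Scd, the stearoyl-CoA desaturase, Elovl6, a fatty acid elongase, and Srebf1, the transcription factor of lipogenesis, had changes of 0.71 ± 0.22, 0.68 ± 0.19 and 0.54 ± 0.19 that did not pass (adjusted p = 0.219, 0.169 and 0.286). Centred on all probe sets the medians were 0.22 for the sterol and 0.01 for the fatty acid list, against -0.19 for all genes.

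Of 8 tested MHC class II genes, which present antigen, 2 rose and 0 fell (0.368% of all genes rose), 3 were higher at an unadjusted p of 0.05 (6.51% of all genes), and 7 had a positive change (48.4% of all genes), with a median of 0.59. Cd74, the invariant chain that guides class II molecules, read 758 and 841 on the wild type and 1758 and 1813 on the L629F iodide arrays (1.13 ± 0.17, adjusted p = 0.0153). RT1-Db1, a class II beta chain, read 95.5 and 53.9 against 412 and 275 (1.79 ± 0.29, adjusted p = 0.0191), while its other kept probe set had a change of 0.45. Both genes were also called under chloride, at 0.88 ± 0.17 and 1.67 ± 0.29 (adjusted p = 0.0409 and 0.0273). RT1-Da, a class II alpha chain, read 224 and 353 against 494 and 431 under iodide and did not pass (0.65 ± 0.24, adjusted p = 0.303), and it was called under chloride (1.66 ± 0.24, adjusted p = 0.0111). Ciita, the master regulator of class II, was near the dim level at 67.9 and 116 against 141 and 105, and its groups overlapped. RT1-CE12, a class I heavy chain, read 666 and 587 against 1423 and 1316 (1.09 ± 0.19, adjusted p = 0.022). Class I and class II genes have near-identical relatives that share probes, so which locus carried these signals is uncertain. Of 20 tested interferon-induced and other class I genes, 0 passed (0.498% of all genes). At an unadjusted p of 0.05, 3 were higher and 0 lower (6.51% and 5.57% of all genes). A positive change was seen in 15 of them (48.4% of all genes), and in 9 when arrays were centred on all probe sets. Without 1 array, Cd74 passed in 5 of 8 fits, RT1-Db1 in 6 and RT1-CE12 in 4.

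Several of the largest rises were in genes outside the lists. Serpinf1, a secreted serpin also called pigment epithelium-derived factor, read 191 and 170.1 on the wild type and 741 and 924 on the L629F iodide arrays (2.00 ± 0.21, adjusted p = 0.000695), 4.62 times as high on the signal scale. Cyp2f4, a cytochrome P450, read 1202 and 960.5 against 3346 and 3512 (1.64 ± 0.14, adjusted p = 0.000267) and had the smallest p of the comparison. Its chloride signals, 2601 and 2740 in wild type and 5102 and 5387 in L629F cells, were higher in both lines and in the same order. Sult1c2, a cytosolic sulfotransferase, read 752 and 683 against 1682 and 1648 (1.18 ± 0.15, adjusted p = 0.0043). Ucp1, the uncoupling protein of brown fat mitochondria and a textbook cAMP-responsive gene there, read 193 and 88.4 against 503 and 626 (1.83 ± 0.30, adjusted p = 0.0204), with wild type replicate 1 above replicate 2. Gal3st4, a Golgi sulfotransferase acting on galactose, read 147 and 256 against 526 and 686 (1.47 ± 0.25, adjusted p = 0.022). Without 1 array, Sult1c2 passed in 7 of 8 fits and Ucp1 and Gal3st4 in 3 each.

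Extracellular matrix genes gave single calls. Fn1, fibronectin, read 384 and 289 on the wild type and 664 and 798 on the L629F iodide arrays and rose by 1.05 ± 0.21 (adjusted p = 0.0467); it was the 1 member of 27 tested in the matrix and integrin list that passed (0.368% of all genes rose), and the list's median was 0.27 under iodide and -0.06 under chloride. Col4a6, a chain of basement membrane collagen, read 72.4 and 93.4 against 263 and 358 (1.54 ± 0.28, adjusted p = 0.0316) and was further apart under chloride, at 63.7 and 56.6 against 532 and 486 (2.51 ± 0.28, adjusted p = 0.0013). Its other kept probe set had a change of 1.96 under iodide. Tgm2, which cross-links matrix proteins, read 1892 and 2106 against 3418 and 3149 (0.71 ± 0.14, adjusted p = 0.0493), and Fam20c, a kinase of secreted proteins, 449 and 509 against 854 and 986 (0.89 ± 0.18, adjusted p = 0.0447). All 4 passed in 0 of 8 fits without 1 array.

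The remaining dim genes with large changes need the low end of the scale in view. Col12a1, a fibril-associated collagen, read 28.5 and 8.7 against 227 and 145 (2.04 ± 0.40, adjusted p = 0.0447). Icam5, an adhesion molecule of neurons, read 29.4 and 7.01 against 173 and 132 (1.84 ± 0.36, adjusted p = 0.0447), and Ppp1r3b, which brings protein phosphatase to glycogen, 19.7 and 25.2 against 186 and 192 (1.96 ± 0.35, adjusted p = 0.0317). Their wild type iodide signals lay under 65.4, the level below which probe sets were left out, and low signals were higher on the L629F arrays as a whole. The filter took the mean over all 8 arrays, so the high L629F signals helped these genes to be tested. For Ppp1r3b the wild type chloride signals, 34.9 and 58.4, were also under that level. The 3 genes remain among the 37 higher genes and the 22 higher by at least 1 log2. With all signals under that level set to it, the adjusted p was 0.151 for Col12a1, 0.181 for Icam5 and 0.0614 for Ppp1r3b. None of the 3 passed in any of the 8 fits without 1 array.

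Another 8 genes that rose are given one by one. Aph1a, a subunit of gamma-secretase, read 628 and 910.3 against 1848 and 1775 (1.22 ± 0.19, adjusted p = 0.0164), and Rab5c, a GTPase of early endosomes, 832 and 538 against 1427 and 1515 (1.09 ± 0.20, adjusted p = 0.0346). Cd47, the surface protein that restrains phagocytes, read 1140 and 1356 against 2405 and 2503 (0.96 ± 0.15, adjusted p = 0.0164), and its other kept probe set had a change of 0.69. Pdcd4, which binds the helicase eIF4A and restrains translation, was the brightest of the higher genes at 6812 and 5943 against 10958 and 10734 (0.77 ± 0.12, adjusted p = 0.0164). Of its 4 other kept probe sets, 3 had changes of 0.46 to 0.74 and the dimmest one of -0.14. Zswim8, the substrate receptor of a ubiquitin ligase that acts in microRNA decay, read 712 and 724 against 1418 and 1478 (0.98 ± 0.16, adjusted p = 0.0197), but its other 2 kept probe sets had changes of -0.06 and 0.01. Cnn1, the actin-binding protein calponin, read 2969 and 2830 against 4299 and 4862 (0.65 ± 0.13, adjusted p = 0.0447). Plekhd1 read 1029 and 1066 against 2351 and 1630 (0.88 ± 0.17, adjusted p = 0.0447) and Ociad2 147 and 105 against 338 and 405 (1.34 ± 0.26, adjusted p = 0.0447). In each of these genes the groups were apart on the brightest probe set. Without 1 array, Aph1a, Cd47 and Pdcd4 passed in 5 of 8 fits each, Zswim8 in 4, Rab5c and Plekhd1 in 1 and Cnn1 and Ociad2 in 0. With kept probe sets averaged per gene, 32 of the 50 genes passed, and Zswim8 had a change of 0.31 (adjusted p = 0.527).

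**Figure D4:**
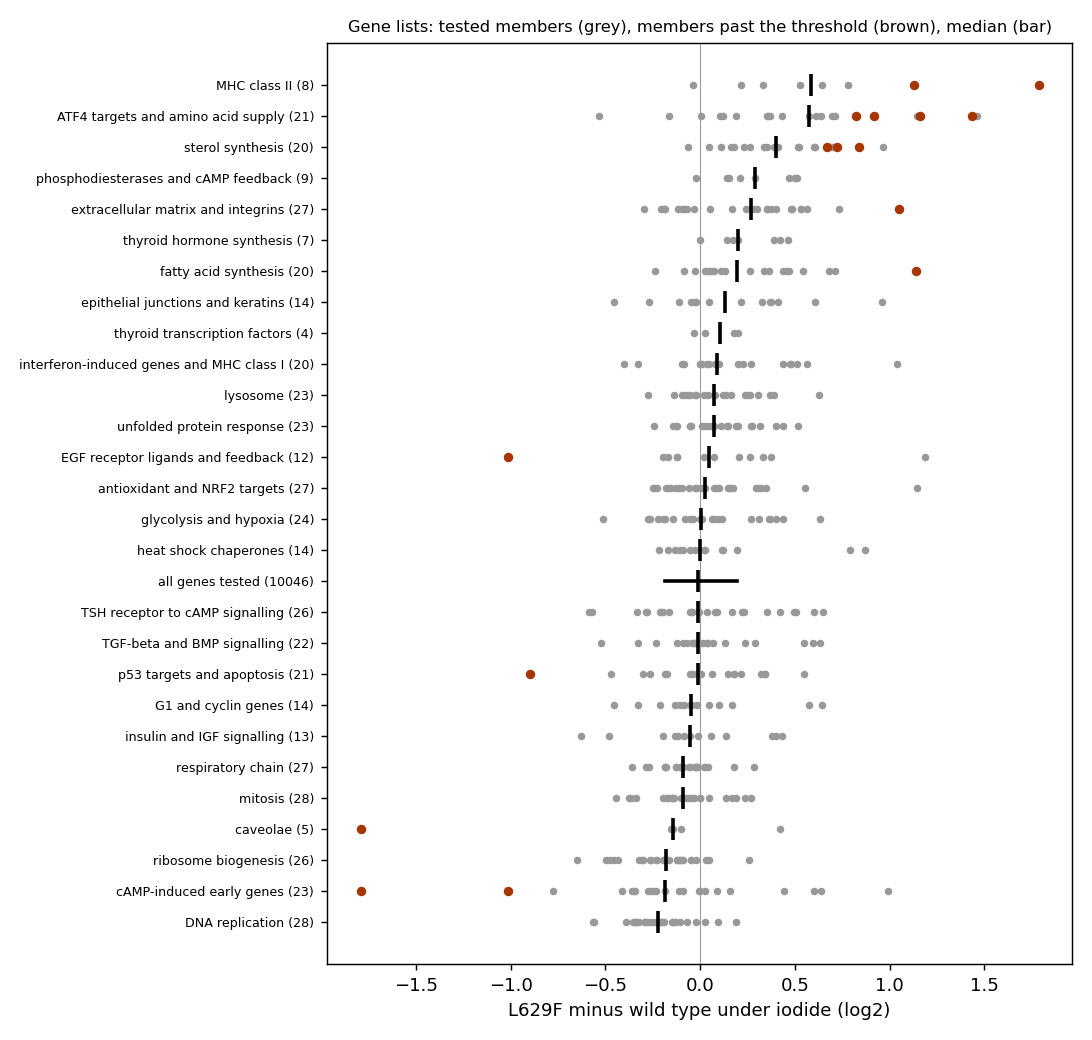
Log2 change of L629F against wild type under iodide for each tested member of the gene lists (points; brown points passed the threshold), with the median of each list (black bar); for all genes tested the horizontal bar spans the quartiles. The ATF4 and MHC class II lists have the highest medians, 0.58 and 0.59, and the DNA replication list the lowest, -0.22.

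Of 23 tested cAMP-induced early genes, 2 fell in L629F cells and 0 rose (0.129% of all genes fell), and 16 had a negative change (51.6% of all genes), with a median of -0.18. At an unadjusted p of 0.05 the list held as many higher as lower members, 2 of each (6.51% and 5.57% of all genes). The 2 higher were Fosl1, a Fos-related subunit of AP-1 (0.99 ± 0.41, adjusted p = 0.363), and Ier2, an immediate early gene (0.60 ± 0.20, adjusted p = 0.254). Under chloride the median was 0.02, 12 members had a positive change, and Egr1, a zinc finger factor, was called higher (1.31 ± 0.25, adjusted p = 0.0394). Areg, amphiregulin, a ligand of the EGF receptor, read 2794 and 2302 on the wild type and 1302 and 1180 on the L629F iodide arrays (-1.01 ± 0.17, adjusted p = 0.0197). With chloride it read 987 and 1075 against 853 and 709.6, so both lines were lower there and the gap was narrower (-0.39 ± 0.17, adjusted p = 0.327). Junb, a subunit of the factor AP-1, read 238 and 198 against 40 and 35.6 (-1.79 ± 0.33, adjusted p = 0.0362). Its chloride groups overlapped, at 169 and 135 for wild type and 184 and 107 for L629F. The L629F iodide signals of Junb were under the dim level, and with such signals set to that level its adjusted p was 0.0513. Klf2, a zinc finger factor of quiescence that is not on that list, read 3953 and 4750 against 2440 and 2698 (-0.75 ± 0.15, adjusted p = 0.0447), but its 3 other kept probe sets had changes of -0.50, 0.40 and 0.36, and with all kept probe sets averaged the change was -0.12 (adjusted p = 0.835). Without 1 array, Areg passed in 3 of 8 fits, Junb in 1 and Klf2 in 0.

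Cavin3, a coat protein of caveolae, had the smallest p among the lower genes. It read 454 and 481 on the wild type and 112 and 107 on the L629F iodide arrays (-1.79 ± 0.24, adjusted p = 0.00648), and 429 and 447 against 102 and 79.7 with chloride, so the groups stood apart by a like amount under either salt. The other 4 tested caveola genes, Cav3, Pacsin2, Pacsin3 and Ehd2, had changes between -0.15 and 0.42, and 0 passed. Mest, an imprinted gene of the hydrolase family, read 3207 and 4448 against 1413 and 1757 (-1.24 ± 0.18, adjusted p = 0.00932), and Pdzrn3, a ubiquitin ligase with PDZ domains, 911 and 628 against 248 and 195 (-1.63 ± 0.28, adjusted p = 0.022). Both were called under chloride too (-1.17 ± 0.18 and -1.39 ± 0.28, adjusted p = 0.0129 and 0.0467). Without 1 array, Mest passed in 6 of 8 fits and Pdzrn3 in 3.

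Among the other lower genes, Gadd45a, a p53 target of growth arrest, read 2073 and 1603 on the wild type and 995 and 928 on the L629F iodide arrays (-0.90 ± 0.18, adjusted p = 0.0467). It was the 1 of 21 tested p53 targets and apoptosis genes that passed (0.129% of all genes fell). Ing3, a subunit of a histone acetyltransferase, read 829 and 829 against 398 and 415 (-0.97 ± 0.19, adjusted p = 0.0447), and its second, dimmer probe set had a change of 0.12. Cop1, a ubiquitin ligase whose substrates include c-Jun, changed by -0.76 ± 0.15, the zinc finger gene Zfp637 by -0.77 ± 0.15, the nuclear envelope protein gene Tmem43 by -0.73 ± 0.14 and Tmem178a, of the endoplasmic reticulum, by -0.69 ± 0.13 (adjusted p from 0.043 to 0.0465). Etnk1, ethanolamine kinase, had the smallest change at the highest signal, 10044 and 10022 against 6709 and 6663 (-0.58 ± 0.12, adjusted p = 0.0465). All 7 passed in 0 of 8 fits without 1 array.

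Of 28 tested genes of DNA replication, 0 passed in limma, and 1 was called lower when arrays were centred on all probe sets. At an unadjusted p of 0.05, 4 were lower (5.57% of all genes) and 0 higher. Changes ran from -0.56 to 0.19, 25 negative and 3 positive, against 51.6% of all tested genes negative. The median was -0.22, and -0.17 to -0.41 under the other scalings. The value of -0.41 came from centring on all probe sets, where the median of all genes was -0.19. Mcm2, a subunit of the replicative helicase, read 3095 and 3221 against 2229 and 2025 (-0.56 ± 0.15, adjusted p = 0.152). In ribosome biogenesis 23 of 26 and in the respiratory chain 22 of 27 tested genes had a negative change (medians -0.18 and -0.09), and in mitosis 21 of 28 (median -0.09), with 0 past the threshold in each. These medians kept their sign under the 3 other scalings, 1 of which moved the median of all genes to -0.19. With quantile scaling the respiratory chain median was -0.02, close to the -0.01 of all genes, and 17 of 27 changes were negative. Under chloride the DNA replication list had a median of -0.253 and 0 genes past the threshold. There 27 of its 28 changes were negative, against 4948 of all 10046 tested genes.

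The remaining lists held few or no calls. Among 14 G1 and cyclin genes, 22 of TGF-beta and BMP signalling, 13 of insulin and IGF signalling, 14 of epithelial junctions and keratins, 27 antioxidant, 23 lysosomal, 24 glycolysis and hypoxia and 14 heat shock genes, 0 passed, and of 12 EGF receptor ligand and feedback genes Areg alone did (limma). At an unadjusted p of 0.05, each such list held 0 to 4 higher genes (6.51% of all genes) and 0 or 1 lower (5.57%). The largest shares of higher genes were 21.4% of epithelial junctions and keratins (3 of 14), 16.7% of glycolysis and hypoxia (4 of 24) and 13% of lysosomal genes (3 of 23). In each of these lists 0 were lower. Centred on all probe sets, 1 gene of TGF-beta and BMP signalling and 1 of insulin and IGF signalling were called lower. With quantile scaling, 1 gene of TGF-beta and BMP signalling was called higher. The next 3 genes were chosen after their values were seen. Id4, an inhibitor of basic helix-loop-helix factors, read 4184 and 3867 against 6149 and 6378 (0.63 ± 0.14, adjusted p = 0.06), and Ndrg1, a hypoxia-inducible gene, 2324 and 2506 against 3606 and 3935 (0.64 ± 0.14, adjusted p = 0.0722). Igfbp7, a secreted IGF-binding protein, read 5277 and 7569 against 3927 and 4221 under iodide (-0.63 ± 0.16, adjusted p = 0.11) and was called lower under chloride (-0.94 ± 0.16, adjusted p = 0.0246). All 3 had separate groups under iodide, as had 19.8% of all tested genes upward and 20.7% downward.

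The thyroid's own genes did not pass. Slc5a5, the sodium-iodide symporter, read 825 and 1385 on the wild type and 1027 and 2149 on the L629F iodide arrays (0.46 ± 0.29, adjusted p = 0.556), and the 2 groups overlapped. Tg, at the signals given above, had a change of 0.17 ± 0.13 (adjusted p = 0.626), and its second kept probe set one of -0.23. Duox2, the oxidase that supplies hydrogen peroxide for iodination, read 1374 and 1203 against 1697 and 1691 without overlap (0.39 ± 0.15, adjusted p = 0.325), and Dio1, a deiodinase, 424 and 422 against 446 and 539.9 (0.20 ± 0.21, adjusted p = 0.738). The channel genes Ano1 and Kcne2 had changes of 0.14 ± 0.18 and -0.0024 ± 0.40, and the transcription factors Pax8, Nkx2-1, Foxe1 and Hhex had changes between -0.03 and 0.20. Of the 17 hormone synthesis genes listed, 7 were tested; Slc26a4 and Iyd were among those too dim. In the chain from receptor to cAMP, 0 of 26 tested genes passed. There 12 changes were positive and 14 negative (48.4% and 51.6% of all genes). Gnai2, an inhibitory G protein subunit, had the smallest p (0.65 ± 0.15, adjusted p = 0.0894) and Arrb2, an arrestin, the next (-0.59 ± 0.21, adjusted p = 0.283). Of 9 tested phosphodiesterase and feedback genes 8 had a positive change (48.4% of all genes), with a median of 0.29, and 0 passed. Pde3b and Pde4b had changes of 0.50 ± 0.24 and 0.29 ± 0.17. The median standard error of a change over all genes was 0.202, and a miss of the threshold does not show equal levels.

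The same contrast under chloride used none of the 4 iodide arrays, although the fit shared its estimate of the spread. There 48 genes passed (0.478%), 33 higher (0.328%) and 15 lower (0.149%), or 19 higher and 73 lower with arrays centred on all probe sets. Without wild type chloride replicate 1 or 2 the count was 4 or 9, and without L629F chloride replicate 1 or 2 it was 5 or 8. Of the 50 genes called under iodide, 47 (94%) had the same sign under chloride, against 64.8% of all tested genes, and 19 were called under both salts, 38% of the iodide calls and 39.6% of the chloride calls; 15 of them were higher and 4 lower in L629F cells. Over all genes the 2 contrasts correlated at r = 0.449 (Pearson) and rho = 0.413 (Spearman), as a description across genes that share their arrays. The median change of the 37 higher genes was 1.13 under iodide and 0.83 under chloride, and that of the 13 lower genes -0.90 and -0.62, where the iodide values are those by which the genes were picked.

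**Figure D5:**
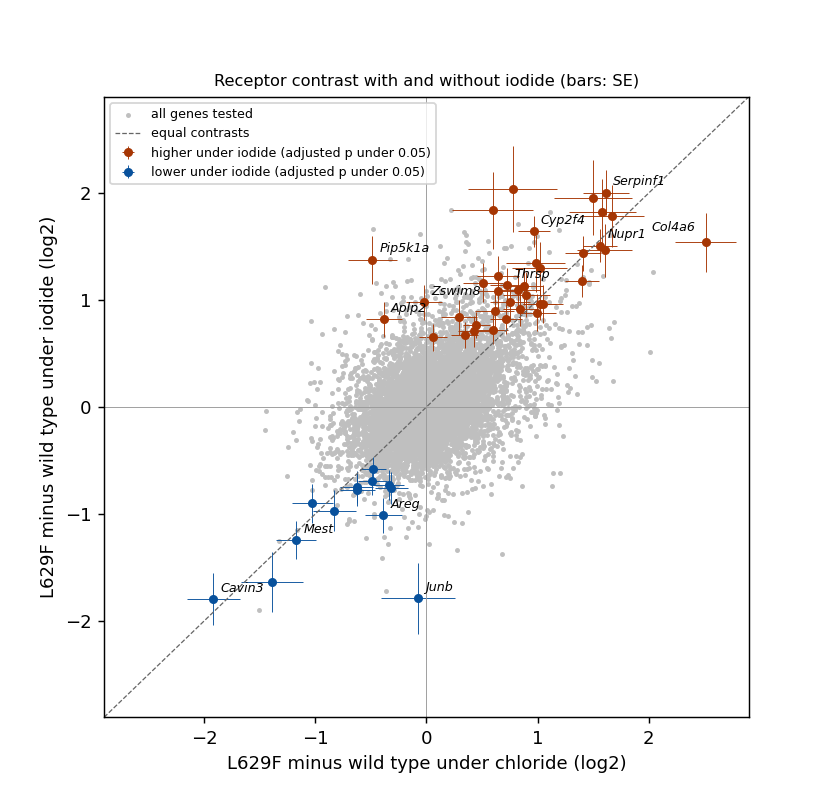
Log2 change of L629F against wild type under chloride (horizontal axis) and under iodide (vertical axis) for the 10046 tested genes, with genes called under iodide in colour (brown higher, blue lower) and bars for their standard errors; the dashed line marks equal contrasts. Of the 50 coloured points 47 have the same sign on both axes, and Pip5k1a, Aplp2 and Zswim8 are the 3 higher genes with a change under chloride below 0.

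The difference of the receptor contrast between the salts was tested directly in limma, and 0 of 10046 genes passed; 420 did at an unadjusted p of 0.05 (4.18%), and the smallest adjusted p was 0.447. The median standard error of that difference was 0.286 on the log2 scale. The smallest p belonged to Pip5k1a, a kinase that makes the membrane lipid PIP2, which read 157 and 157 on the wild type and 441 and 486 on the L629F iodide arrays (1.38 ± 0.22, adjusted p = 0.0191, passing in 4 of 8 fits without 1 array). With chloride the order was the opposite, at 539 and 409.6 for wild type and 359 and 296 for L629F. Aplp2, a relative of the amyloid precursor protein, read 1068 and 1140 against 1797 and 2175 with iodide (0.82 ± 0.16, adjusted p = 0.0447, passing in 0 of those fits) and 3029 and 2531 against 1921 and 2324 with chloride; its other 2 kept probe sets had changes of -0.27 and 0.14 under iodide, and with all kept probe sets averaged the change was 0.23 (adjusted p = 0.707). For Chac1, Nupr1 and Cavin3 the difference between the salts was 0.03 ± 0.23, -0.06 ± 0.22 and 0.12 ± 0.34. For Slc7a5 it was 0.66 ± 0.26, for Dhcr7 0.54 ± 0.23 and for Junb -1.71 ± 0.47 (unadjusted p = 0.0227, 0.0335 and 0.0027, adjusted p = 0.994 for each). No gene is therefore called particular to iodide here.

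The positions of called genes were also read. In the order of the GRCr8 gene table, 10012 tested genes could be placed, with all 50 called genes among them, and there were 0 runs of at least 3 genes called in the same direction with up to 2 other tested genes between neighbours. On chromosome 4, however, Ing3, Mest, Gadd45a, Tmem43, Pdzrn3, Zfp637 and Etnk1 were all lower in L629F cells, and no called gene there was higher. From each to the next it was 23 to 114 tested genes, too far for the rule on runs. This pattern was seen after the calls, and its cause was not tested.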

How the data were processed

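The deposited values are linear intensities of Affymetrix rat arrays, computed with MAS5 per the submitters' processing notes. The version of MAS5 is not given in the sources used here. With 2% trimmed at each end, every array had a mean of 500.2, which shows a common scaling before deposit. Of 31099 probe sets, the 57 controls and the lowest 40% by mean log2 signal (under 65.4) were left out, and 18625 were kept. Of all probe sets 20832 had 1 symbol in the platform annotation, 436 several and 9831 none, and 20764 matched a GRCr8 entry. The 4704 kept probe sets without a single symbol were not tested, and the brightest of the rest stood for each gene (10046 genes). Values were log2(signal + 35.3), where 35.3 is the 25th percentile of all signals, without centring: array medians spanned 0.0559 over kept and 0.253 over all probe sets.

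A coefficient per group was fitted to the 8 arrays by limma 3.58.1 under R 4.3.3 (lmFit and eBayes, trend on; 4 residual and 9.45 prior degrees of freedom), with two-sided tests and p-values adjusted by Benjamini-Hochberg across the genes at 0.05. On simulated data (20 runs of 10046 genes, 200 of them changed) the iodide comparison recovered 14.5%, 73.3% and 97.8% of genes changed by 0.5, 1 and 2 log2, and 6.84% of its calls were false. The simulated noise was normal and independent between genes and arrays, without the shift of low signals between the lines. These rates therefore describe the simulated setting and may not hold for the real arrays. Named by rule were the 15 largest rises and 15 largest falls past the threshold among genes with separate groups (filled up by smallest p), the 5 of smallest p for the difference between salts, all thyroid synthesis genes and factors, and each other list's called members or its 2 of smallest p. Not every gene so named is described here. The remaining names were picked once their values were known. The comparison and the gene lists were chosen with earlier results of these data known. Lists were described by counts and medians, without a set test. For 2 against 2 arrays an exact permutation test cannot go below p = 0.333, so array quality was not tested. Further software was the R package data.table (version 1.17.8), Python 3.11.15 and, for the plots, matplotlib 3.10.9. The alternatives changed the pseudocount, filter, floor, scaling, probe set rule, variance trend, covariates, threshold and arrays in the fit, and left out each array in turn.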

Additional observations from a re-analysis of the deposited data

Results flagged for a closer look

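For 5 named genes both L629F arrays lay on one side of both wild type arrays under iodide and on the other side under chloride. Only named genes were searched, and the share of all genes with such opposite orders was not counted. Of all tested genes, 19.8% were apart upward and 20.7% downward under iodide, and 24.8% and 22.9% under chloride. The change under iodide minus that under chloride was 1.86 for Pip5k1a, 1.21 for Aplp2, 0.639 for Krt7, an epithelial keratin, -1.42 for Pin4, a peptidyl-prolyl isomerase, and -1.18 for Mtif2, a mitochondrial initiation factor (log2 scale). Krt7 read 805 and 788 on the wild type and 1014 and 1127 on the L629F arrays with iodide, and 1564 and 1333 against 1249 and 1204 with chloride. Pin4 read 1403 and 994 against 617 and 876 with iodide and 636 and 606 against 1160 and 993 with chloride, and Mtif2 949.7 and 823 against 473 and 536 and 456 and 581 against 635 and 764. The interaction test passed for 0 of them in limma: the adjusted p was 0.447 for Pip5k1a, 0.711 for Aplp2 and 0.994 for the other 3. Pip5k1a, Aplp2, Pin4 and Mtif2 were named by the rule because they are among the 5 genes of smallest p for that difference. Their opposite order under the salts is therefore no separate result.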

How the results depend on the processing

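The count of 50 calls under iodide became 14 with no filter on dim probe sets, 33 with probe sets averaged per gene, 21 with every probe set and neither pseudocount nor filter, 13 without the intensity trend, 133 with the GAPDH and 106 with the beta-actin ratio as covariate, 8 at a threshold of 0.01, 103 at 0.10, 4 with only the iodide arrays, 33 with each kept probe set on its own (an alternative added after the data were seen) and 8 to 25 without 1 array. Under chloride the count of 48 became 14 with no filter, 92 (19 higher, 73 lower) centred on all probe sets, 15 with every probe set, 9 without the trend, 260 and 127 with the GAPDH and beta-actin covariates, 6 at 0.01, 97 at 0.10, 84 with only the chloride arrays and 4 to 64 without 1 array. With the replicate block the counts were 168 under iodide, 246 under chloride and 0 for the difference; deviations of arrays with the same number correlated at 0.0473 to 0.228, and with 2 numbers per group they are not taken as a pairing. Counts under the other pseudocounts, the stricter filter, the floor, quantile scaling and centring on kept probe sets lay between 44 and 54 for iodide and between 33 and 63 for chloride. For the difference between salts the count was 0 in every fit run, and runs of neighbouring genes numbered 0 with 0, 2 or 5 genes allowed between neighbours. No called gene changed sign in any fit, which for the fits without 1 array was fixed beforehand by the separate iodide groups. Of the 50 genes, 43 passed with quantile scaling, 45 centred on kept and 30 centred on all probe sets, and 26 under all 3 scalings. The cause of these moves was not tested, apart from fewer arrays or more genes in a fit, and 2 arrays per group limit the precision. A group left with 1 array was taken to vary like the other groups.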
